A study of Homo sapiens with 6 samples.

Results

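The mitochondrial ribosomal protein genes are the nuclear genes whose symbols consist of MRPL or MRPS, a number and, in a few cases, a letter from A to C. The table of expression values held 78 such genes among 25706, and each had a single row. By symbol, 49 belong to the large subunit (MRPL) and 29 to the small subunit (MRPS). They were measured in MDA-MB-231, an established human line of triple-negative breast cancer cells, in 6 libraries of oligo(dT)-selected RNA. In 3 libraries (overexpression 1 to 3) the cells overexpressed tsRNA-Gly-5-0006, a small RNA named as a fragment of a glycine tRNA, and 3 libraries (control 1 to 3) are labelled control. The labels do not give the vector or oligonucleotide used, what the control cells received, or a time. Nothing in the labels says that the 3 libraries of a group came from separate cultures, so the p-values below measure the spread between these libraries, which may be technical.

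The mitochondrial ribosome translates the few messenger RNAs that the mitochondrial genome encodes, all of them for subunits of the respiratory chain and ATP synthase. Its ribosomal RNAs come from the mitochondrial genome, whereas all of its proteins are encoded in the nucleus, made in the cytosol and imported. Part of these proteins descend from bacterial ribosomal proteins and the others are found only in mitochondria, where they form much of the outer shell of the particle. A few symbols do not describe where the protein sits. The proteins of MRPS18A and MRPS30 lie in the large subunit, and the protein of MRPS36 is a subunit of the oxoglutarate dehydrogenase complex.

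Some facts about the libraries bear on every value. Totals of the deposited expected counts were 54371226 to 74586916 per library. VIM, the intermediate filament gene of mesenchymal-like cells, lay between 365 and 460 FPKM (fragments per kilobase of transcript, adjusted for the size of the library), and PGR, the progesterone receptor gene, was listed at 0 in 5 libraries. VIM belongs to a list of 7 genes taken as present in this line. On that list EGFR, a growth factor receptor gene, had a mean of only 0.731 FPKM over the 6 libraries. The means of the others ran from 26.6 FPKM for CAV1 to 2683 FPKM for LGALS1. KRT8, a keratin gene taken as low in this line, lay between 556 and 656 FPKM. Overexpression 1 stood apart. The summed level of 13 fibroblast marker genes was 22.3 FPKM there and 4.16 to 6.51 FPKM in the other 5 libraries. COL3A1, DCN and FAP were listed at 0 in those 5. In overexpression 1 COL3A1 was at 1.80 FPKM, but DCN only at 0.0496 FPKM and FAP at 0.0911 FPKM. COL5A1 was not raised, at 4.63 FPKM in overexpression 1 and 3.26 to 5.32 FPKM in the other 5. Of these 13 genes, 9 could be tested, with a median log2 fold change of 2.57, which was -0.18 without overexpression 1. With all 6 libraries 7 were positive, and COL5A1 (-0.13) and PDGFRB (-0.03) were negative. The part of these markers in the results was not tested, and fold changes are therefore also given without overexpression 1. In RNA of whole cultures, fewer cells that express a gene and less of its RNA per cell cannot be told apart.

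The members are spread over 21 chromosomes, and RefSeq promoter sequences of the build GRCh38.p14, from 250 bases before to 50 after the start, could be matched by symbol to 69 of them. Motifs of factors known for nuclear genes of mitochondrial proteins were searched on both strands. The ETS motif CCGGAAG, bound by GABPA, was in the promoters of 30 members (43.5%), against 22.1% of 11200 tested genes and 12.2% of all 27305 genes with a promoter. The YY1 motif AAGATGGCG was in those of 13 members (18.8%), against 4.42% of tested genes and 2.14% of all. Most of these YY1 matches lay after the start, since 3 members (4.35%) had one within the 250 bases before it, against 1.36% of tested genes. GCGCATGC, a form of the NRF1 site, was found for 6 members (8.70%), against 6.21% of tested genes, and the shorter TGCGCA, which overlaps it, for 15 (21.7%), against 15.9%. GGGCGG, the SP1 box, was found for 42 members (60.9%), against 76.3% of tested genes.

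The promoters of 3 members are shown as the 250 bases before the start, because they belong to the most abundant member, to the member with the smallest p-value and to a member with ETS matches. Capitals mark the shorter NRF1 motif, the SP1 box and the ETS motif on either strand. The MRPL12 window, chr17:81703117-81703366 on the plus strand, holds TGCGCA and no match to the other motifs. That of MRPS35, chr12:27710582-27710831 on the plus strand, holds TGCGCA and 2 matches to the SP1 box. The MRPL58 window, chr17:75012420-75012669 on the plus strand, holds 2 matches to CCGGAAG and 1 to the SP1 box.
MRPL12: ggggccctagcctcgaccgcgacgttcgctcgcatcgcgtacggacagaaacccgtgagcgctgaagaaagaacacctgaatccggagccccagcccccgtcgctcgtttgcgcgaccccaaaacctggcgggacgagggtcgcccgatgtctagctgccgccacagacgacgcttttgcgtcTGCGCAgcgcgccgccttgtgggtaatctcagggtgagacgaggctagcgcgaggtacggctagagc
MRPS35: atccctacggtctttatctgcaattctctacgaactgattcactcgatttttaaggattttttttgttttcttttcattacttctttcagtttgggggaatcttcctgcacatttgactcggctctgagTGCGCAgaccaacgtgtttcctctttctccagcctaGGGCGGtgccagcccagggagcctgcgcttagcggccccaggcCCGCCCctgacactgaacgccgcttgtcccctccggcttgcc
MRPL58: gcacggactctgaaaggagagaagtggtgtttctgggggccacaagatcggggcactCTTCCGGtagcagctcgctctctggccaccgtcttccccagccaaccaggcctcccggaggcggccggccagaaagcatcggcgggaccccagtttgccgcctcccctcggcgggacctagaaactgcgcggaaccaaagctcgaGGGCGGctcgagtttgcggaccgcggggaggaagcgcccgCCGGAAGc
A match describes letters in this window and not a bound site. The median log2 fold change of overexpression against control was 0.03 over the 30 members with the ETS motif and 0.01 over the 39 without it (0.05 and 0.04 without overexpression 1), while the median level was 23.1 FPKM with it and 12.6 FPKM without it.

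Across the 6 libraries the mean level of the members ran from 0.311 FPKM for MRPL42, a large-subunit gene, to 555 FPKM for MRPL12. The longest transcript of MRPL42 has 15582 bases. Its mean count of 367 was above the 126 of MRPL1, which was at 1.05 FPKM, so its lowest place rests on a long annotated length. The median was 18.3 FPKM for the large-subunit genes and 7.85 FPKM for the small-subunit genes. Levels above 50 FPKM were found for 16 large-subunit and 6 small-subunit genes, levels from 5 to 50 FPKM for 32 members, and levels under 5 FPKM for 24. The 5 most abundant members, MRPL12, MRPL41, MRPL54, MRPL49 and MRPS34, held 38.8% of the summed FPKM of all 78. The ratio of count to FPKM implies a length for each gene, which was within 20% of the length of all its annotated exons merged together for 67 of the 78 members. MRPS22, a mitochondria-specific small-subunit gene (chr3:139005806-139360497), had an implied length of 18073 bases, against 5382 bases of merged exons and 2160 bases for its longest transcript. Its level was 0.328 FPKM, at rank 77 of the members, and it ranked 70 by counts per kilobase of the longest transcript. For 5 members, MRPS22 among them, the implied length was at least 3 times the longest transcript, so levels of different genes are comparable only as far as these lengths hold. Ranking the members by counts per kilobase of the longest transcript gave nearly the same order (Spearman's rho 0.97 across the 78 genes), although MRPL41 moved from rank 2 to rank 14.

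**Figure D1:**
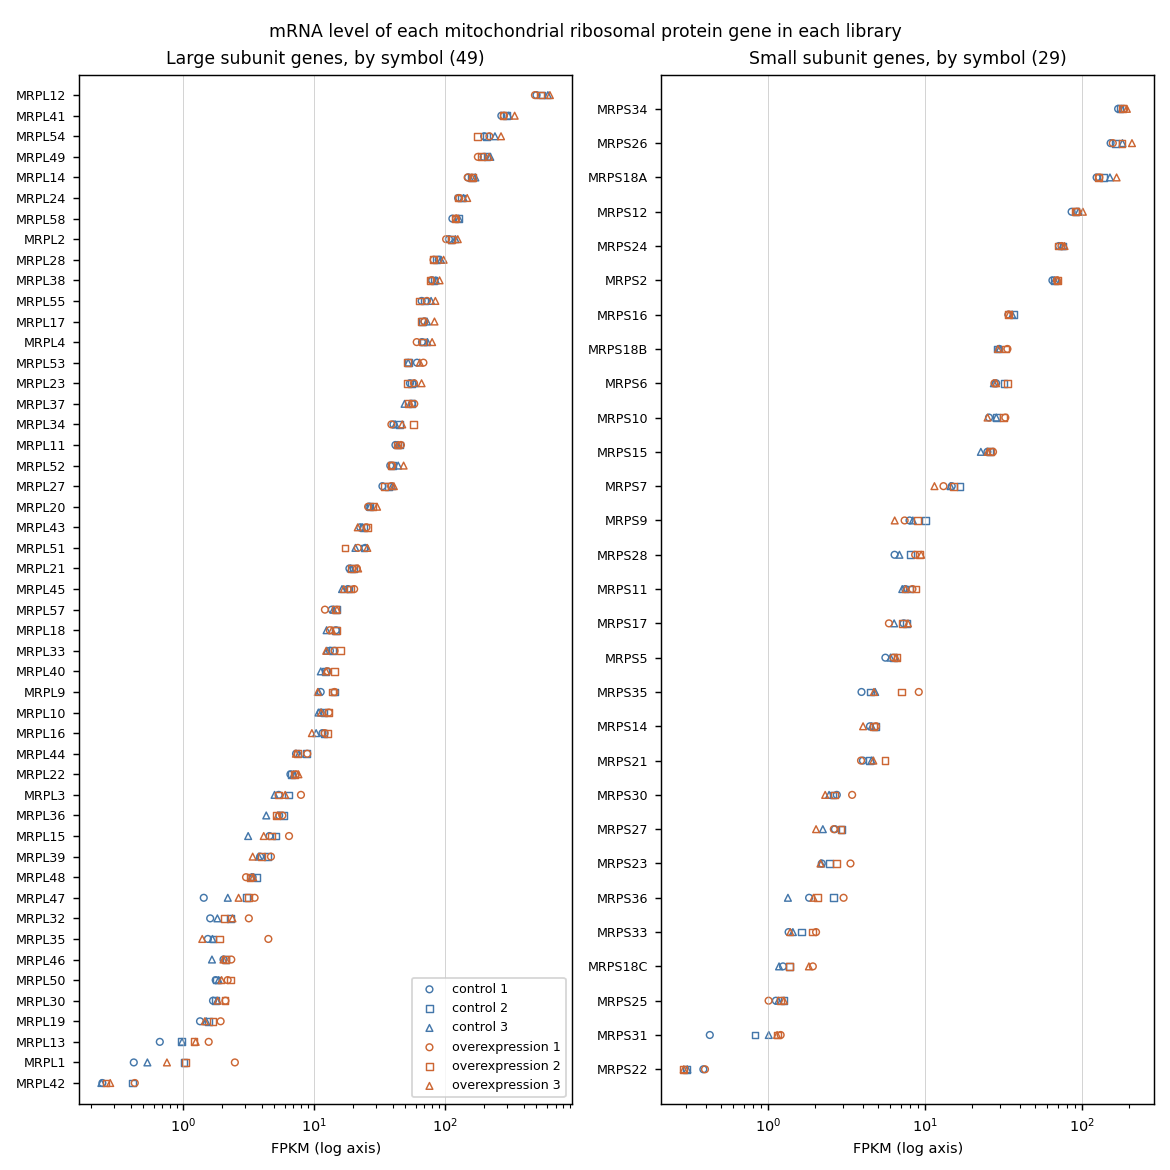
Level of each of the 78 genes in every library, in FPKM on a log axis, for the large and the small subunit. The genes span from 0.311 FPKM (MRPL42) to 555 FPKM (MRPL12), and the points of the 2 groups lie close together beside this range.

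The mitoribosomal genes differed little in level between the groups, and no member passed the test. All 78 members passed the filter on low counts, and 0 had an adjusted p under 0.05 in the edgeR quasi-likelihood test with Benjamini-Hochberg adjustment over 15951 genes. The background was the same, with 0 of the 15951 genes (0%) called, and DESeq2 called 12 of 15820 genes (0.0759%) and no member. The smallest adjusted p among the members was 0.994. At an unadjusted p under 0.05, 2 members were higher (MRPS35 and MRPL13) and 1 was lower (MRPS7), where 2.56% of all tested genes were higher and 1.27% lower (3.83% in either direction). The fitted log2 fold change lay within 0.15 of 0 for 60 of the 78 members. The 95% confidence interval of a member reached 0.32 to either side at the median, against 0.53 for all tested genes, so the intervals of most members do not exclude changes of about that size.

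As a group the members had a median log2 fold change of 0.03, beside 0.02 for all tested genes. It was 0.02 for the large-subunit genes and 0.06 for the small-subunit genes. Positive values were found for 50 of 78 members (64.1%), where 54.8% of all tested genes were positive. Without overexpression 1 the medians were 0.04 for all members, 0.04 for the large and 0.06 for the small subunit, beside 0.01 for all tested genes, and 53 members were positive (67.9%, against 51.5% of tested genes). With overexpression 3 left out in its place, 35 members were positive and the median over all members was -0.03. Upper-quartile scaling left 37 members positive, with a median of -0.0011, beside -0.01 for all tested genes under that scaling. The sign of so small a group value therefore depended on the libraries and on the scaling.

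**Figure D2:**
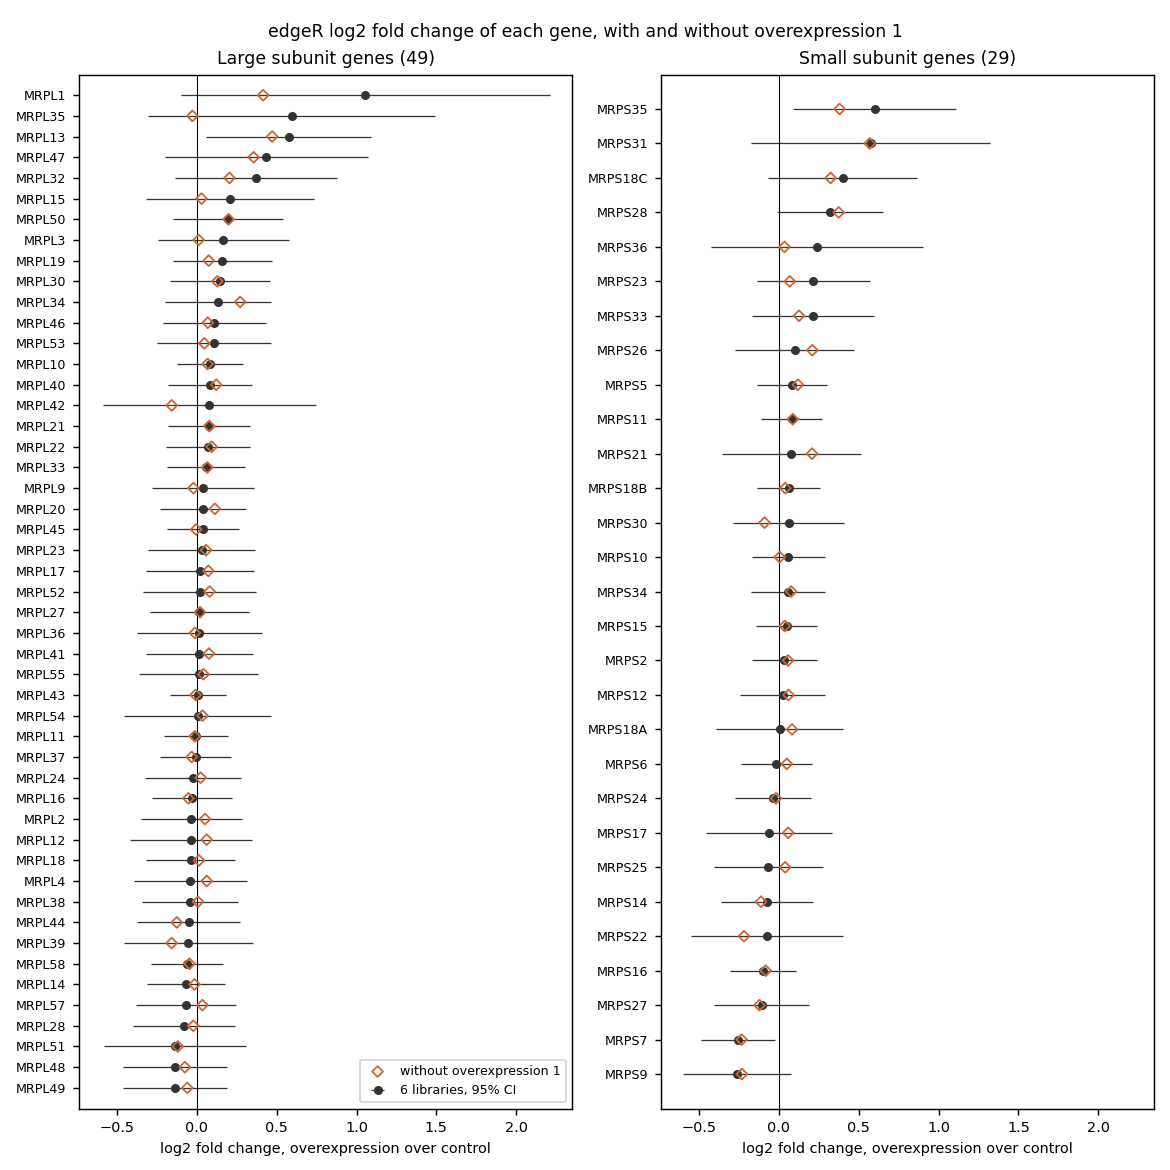
Fitted log2 fold change of overexpression against control for each member with its 95% confidence interval (edgeR), with the value without overexpression 1 beside it. The values of 60 of 78 members lie within 0.15 of 0, and MRPL1 and MRPL35 are the members that move by over 0.58 when overexpression 1 is left out.

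Summing the FPKM of all members of a subunit gives the library's total message for it. The large-subunit genes summed to 2617, 2776 and 2916 FPKM in control 1 to 3 and to 2661, 2661 and 3079 FPKM in overexpression 1 to 3. These ranges overlap, and the means were 2769 ± 150 and 2801 ± 241 FPKM (SD, n = 3 each), a difference of 1.13% (exact permutation test, two-sided, p = 0.8). The small-subunit genes summed to 886, 946 and 968 FPKM in the controls and to 949, 965 and 1034 FPKM in the overexpression libraries. Overexpression 1 and 2 lay within the range of the controls and overexpression 3 above it, and the means of 933 ± 42.6 and 983 ± 45.4 FPKM (SD, n = 3 each) differed by 5.30% (exact permutation p = 0.4, two-sided). With the genes placed by structure (51 large, 26 small, MRPS36 left out), the small subunit summed to 757, 804 and 813 FPKM in the controls and 814, 833 and 864 FPKM in the overexpression libraries. Here the groups did not overlap, overexpression 1 lying just above control 3, and the difference of 5.72% had an exact permutation p of 0.1, adjusted to 0.3 over the 3 values compared (large, small and their ratio). This p is the smallest that 3 libraries against 3 can give, so no such sum could have passed 0.05.

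The ratio of large to small summed FPKM was 2.95, 2.93 and 3.01 in the controls and 2.80, 2.76 and 2.98 in the overexpression libraries. Overexpression 3 lay among the controls and the other two below them (means 2.97 ± 0.0413 and 2.85 ± 0.116, SD, n = 3 each; exact permutation p = 0.3, two-sided). Without overexpression 1 the large sum was 3.65% and the small sum 7.12% higher than in the controls, and the ratio 3.35% lower (a difference of -3.35%). Of all deposited counts, the large-subunit genes took 0.532% in both groups and the small-subunit genes 0.201% in the controls and 0.208% in the overexpression libraries.

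Several abundant members have well-known roles. MRPL12 (chr17:81703367-81707517) encodes the stalk protein of the large subunit, to which translation factors bind. It was at 501, 553 and 612 FPKM in control 1 to 3 and at 488, 540 and 634 FPKM in overexpression 1 to 3. The lowest and the highest library were both overexpression libraries, and the log2 fold change was -0.04 with a standard error (SE) of 0.16, and 0.06 without overexpression 1. MRPL41 (chr9:137551879-137552555), which encodes a mitochondria-specific large-subunit protein, was at 270, 295 and 308 FPKM in the controls and 283, 278 and 341 FPKM in the overexpression libraries. MRPL54, also mitochondria-specific, was at 200, 210 and 241 FPKM against 219, 179 and 269 FPKM. For both genes overexpression 3 was the highest library, the groups overlapped and the log2 fold changes were 0.01 (SE 0.14) and 0.0043 (SE 0.20), or 0.08 and 0.04 without overexpression 1.

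MRPL49 was at 198, 210 and 223 FPKM in the controls and 179, 191 and 218 FPKM in the overexpression libraries (log2 fold change -0.14, SE 0.14, and -0.06 without overexpression 1). MRPL14, a relative of a bacterial protein at the interface of the subunits, was at 151, 160 and 171 FPKM against 149, 162 and 161 FPKM (log2 fold change -0.07, SE 0.10, and -0.01 without it). In both genes overexpression 1 was the lowest of the 6 libraries. MRPL58, which encodes a peptidyl-tRNA hydrolase that is also a structural protein of the large subunit, was at 114, 127 and 128 FPKM against 122, 120 and 123 FPKM. Its overexpression libraries all lay inside the range of the controls (log2 fold change -0.06, SE 0.10, and -0.05 without overexpression 1).

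Among the small-subunit genes, MRPS34 (chr16:1771890-1773150) had the highest level. It was at 170, 174 and 179 FPKM in the controls and at 186, 180 and 193 FPKM in the overexpression libraries. Every overexpression library lay above every control, narrowly so between overexpression 2 and control 3, and the log2 fold change on the TMM-scaled counts was 0.06 (SE 0.10, edgeR unadjusted p = 0.588), and 0.08 without overexpression 1. MRPS26 was at 152, 163 and 181 FPKM against 157, 179 and 208 FPKM (log2 fold change 0.10, SE 0.16, and 0.21 without overexpression 1). MRPS24, whose protein is a relative of a bacterial protein at the entry of the messenger RNA, was at 71.3, 75.6 and 74.7 FPKM against 73.9, 70.6 and 77.3 FPKM (log2 fold change -0.04, SE 0.10, and -0.02 without overexpression 1). The libraries of the 2 groups were interleaved in both genes. MRPS12, the gene of a protein at the decoding centre, was at 85.8, 91.7 and 95.1 FPKM against 92.7, 90.9 and 101 FPKM (log2 fold change 0.03, SE 0.11, and 0.06 without overexpression 1).

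The paralogues MRPS18A, MRPS18B and MRPS18C encode 3 versions of a bacterial small-subunit protein and differed widely in level, at 139, 30.6 and 1.48 FPKM. MRPS18A was at 124, 137 and 151 FPKM in the controls and 129, 127 and 166 FPKM in the overexpression libraries (log2 fold change 0.0046, SE 0.17, and 0.08 without overexpression 1). MRPS18B was at 29.7, 28.8 and 29.8 FPKM against 33.5, 32.6 and 29.1 FPKM (log2 fold change 0.06, SE 0.08, and 0.04 without overexpression 1). MRPS18C (chr4:83455932-83462298) was at 1.24, 1.36 and 1.17 FPKM against 1.93, 1.36 and 1.82 FPKM. Its groups did not overlap, although overexpression 2 and control 2 were alike to 3 digits, and the log2 fold change was 0.40 (SE 0.20, edgeR unadjusted p = 0.0829, adjusted p = 0.994). It was 0.32 without overexpression 1 and 0.12 with an offset for the GC content of the transcripts, added after seeing the data.

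MRPS35 (chr12:27710822-27756295), a mitochondria-specific small-subunit gene, had the smallest unadjusted p of all members. It was at 3.93, 4.49 and 4.81 FPKM in control 1 to 3 and at 9.11, 7.10 and 4.72 FPKM in overexpression 1 to 3. Overexpression 1 and 2 lay above all controls and overexpression 3 lay inside their range. The log2 fold change was 0.60 (SE 0.22, 1.52-fold, edgeR unadjusted p = 0.0272, adjusted p = 0.994). It was 0.38 without overexpression 1 and 0.35 with the GC offset. MRPL13 (chr8:120380761-120445402), a relative of a bacterial large-subunit protein, was at 0.668, 0.976 and 0.988 FPKM against 1.58, 1.22 and 1.26 FPKM. All overexpression libraries were above all controls, and the log2 fold change was 0.57 (SE 0.22, edgeR unadjusted p = 0.0341, adjusted p = 0.994), 0.47 without overexpression 1, and 0.11 with the GC offset.

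MRPS7 (chr17:75261674-75266376) encodes a relative of the bacterial protein that starts assembly of the head of the small subunit, and it was the member with the smallest p among those lower with overexpression. It was at 14.8, 16.7 and 14.5 FPKM in the controls and at 13.1, 15.2 and 11.5 FPKM in the overexpression libraries. Overexpression 2 lay inside the range of the controls and the other two below it. The log2 fold change was -0.26 (SE 0.10, edgeR unadjusted p = 0.0343, adjusted p = 0.994), with -0.23 without overexpression 1 and -0.25 with the GC offset. MRPS9, another relative of a bacterial small-subunit protein, was at 7.96, 10.1 and 8.36 FPKM against 7.41, 8.95 and 6.40 FPKM. Its groups overlapped, with overexpression 1 and 3 below all controls and a log2 fold change of -0.26 (SE 0.14), and -0.23 without overexpression 1.

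**Figure D3:**
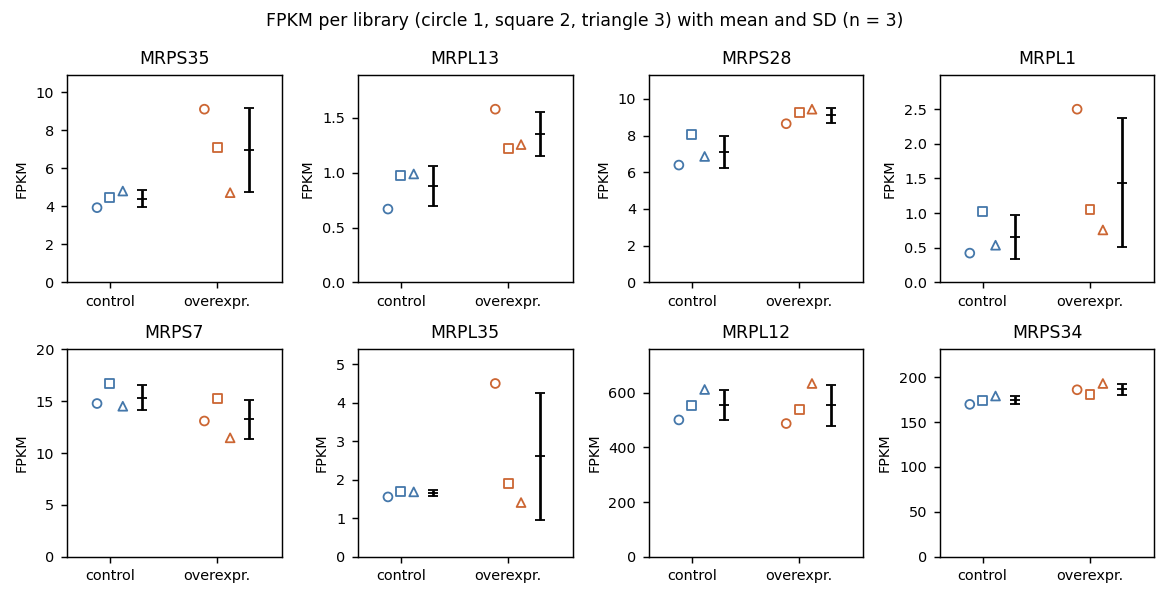
FPKM in each library for 8 members, with the mean and SD of each group (n = 3) and axes that start at 0. The overexpression libraries of MRPL13, MRPS28 and MRPS34 lie above all controls, those of MRPL1 and MRPL35 are spread by overexpression 1, and MRPL12 overlaps fully. In MRPS35 overexpression 1 and 2 lie above all controls and overexpression 3 lies inside their range.

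MRPS28 (chr8:79918717-80030289), a small-subunit gene, was at 6.39, 8.06 and 6.86 FPKM in the controls and 8.64, 9.25 and 9.43 FPKM in the overexpression libraries. The groups did not overlap, and the log2 fold change was 0.32 (SE 0.14), 0.37 without overexpression 1 (edgeR unadjusted p = 0.0321, with an adjusted p of at least 0.9999 for every member in that fit) and 0.20 with the GC offset. MRPS31, a mitochondria-specific small-subunit gene, was at 0.425, 0.825 and 1.01 FPKM against 1.20, 1.15 and 1.14 FPKM. Here the overexpression libraries were close together and above controls that spread widely. The log2 fold change was 0.57 (SE 0.32), and 0.57 (SE 0.34) without overexpression 1. It was 0.30 without control 1, its lowest library, and 0.35 with the GC offset. MRPL47, a relative of a bacterial protein near the exit of the peptide tunnel, was at 1.45, 3.05 and 2.21 FPKM against 3.54, 3.18 and 2.67 FPKM (log2 fold change 0.44, SE 0.27). Control 2 lay within the overexpression range, and the value was 0.36 without overexpression 1, 0.21 without control 1, 0.70 without control 2 and 0.14 with the GC offset.

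In 10 of the 78 members (12.8%) every overexpression library lay above every control, in 0 every one lay below, and the groups of the other 68 overlapped. Over all tested genes the FPKM groups did not overlap in 8.22%, with 5.67% higher. The 10 members are MRPL13, MRPL22, MRPL30, MRPL50, MRPS2, MRPS5, MRPS18C, MRPS28, MRPS31 and MRPS34, and those of them outside the naming rule are named for their values. Their log2 fold changes ran from 0.03 for MRPS2 to 0.57 for MRPL13. MRPS2 was at 64.7, 66.5 and 66.8 FPKM in the controls and 69.1, 69.7 and 70.1 FPKM in the overexpression libraries, a separation that the TMM-scaled fit gave as 0.03 (SE 0.09, and 0.06 without overexpression 1). By subunit they are 4 of 49 large-subunit genes (8.16%) and 6 of 29 small-subunit genes (20.7%), a difference that was not tested. Without overexpression 1, 13 members were higher (16.7%, against 9.81% of tested genes) and 1, MRPS22, was lower (against 5.56%). That fit called no member and 4 genes in all (0.0251%), and 2 members, MRPS28 and MRPL34, had an unadjusted p under 0.05 there, where 2.73% of tested genes did.

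Some of the values moved strongly when overexpression 1 was left out. MRPL1 (chr4:77862830-77952785), the gene of a protein of the L1 stalk, was at 0.423, 1.02 and 0.537 FPKM in the controls and 2.50, 1.06 and 0.758 FPKM in the overexpression libraries. Its log2 fold change, the largest of any member, was 1.05 (SE 0.49, edgeR unadjusted p = 0.0681) and 0.42 (SE 0.38) without overexpression 1, and 0.66 with the GC offset. MRPL35 (chr2:86199355-86213738), a relative of a bacterial large-subunit protein, was at 1.56, 1.71 and 1.69 FPKM against 4.50, 1.91 and 1.41 FPKM. Its value of 0.59 (SE 0.38) became -0.03 (SE 0.17) without overexpression 1 and 0.22 with the GC offset. These 2 members were the ones whose log2 fold change moved by more than 0.58, and 7.99% of all tested genes moved as much. The sign was the same with and without overexpression 1 in 61 of 78 members.

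Overexpression 1 was the highest library of other members too. MRPL32, whose protein is matured by the m-AAA protease before it joins the large subunit, was at 1.62, 2.31 and 1.84 FPKM against 3.19, 2.09 and 2.40 FPKM. The log2 fold change of 0.37 (SE 0.22) was 0.20 without overexpression 1 and 0.02 with the GC offset. MRPL3, a relative of a bacterial protein close to the peptidyl transferase centre, was at 5.40, 6.41 and 5.02 FPKM against 7.99, 5.38 and 6.05 FPKM (log2 fold change 0.17, SE 0.18, and 0.01 without overexpression 1). The protein of MRPS36 belongs to the oxoglutarate dehydrogenase complex, and the gene was at 1.82, 2.61 and 1.34 FPKM against 3.02, 2.06 and 1.95 FPKM (log2 fold change 0.24, SE 0.28, and 0.04 without overexpression 1). In each of these 3 genes overexpression 1 was the highest of the 6 libraries.

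Other members with known roles or very low levels showed overlapping groups. MRPL44, whose protein has an RNase III-like fold, was at 7.33, 8.85 and 7.72 FPKM in the controls and 8.92, 7.54 and 7.31 FPKM in the overexpression libraries (log2 fold change -0.05, SE 0.14, and -0.13 without overexpression 1). MRPL45, which holds the ribosome at the inner membrane, was at 18.2, 18.6 and 16.4 FPKM against 20.3, 19.1 and 17.0 FPKM (log2 fold change 0.04, SE 0.10, and -0.0047 without overexpression 1). MRPL42 was at 0.244, 0.412 and 0.239 FPKM against 0.431, 0.260 and 0.280 FPKM (log2 fold change 0.08, SE 0.28, and -0.16 without overexpression 1). MRPS22 was at 0.387, 0.302 and 0.305 FPKM against 0.396, 0.289 and 0.290 FPKM (log2 fold change -0.08, SE 0.20, and -0.22 without overexpression 1). Overexpression 1 was the highest library in all of these, and for MRPS22 the other two overexpression libraries were below every control.

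The library that stood highest differed with the level of the gene, in classes chosen after seeing the data. Among the 24 members under 5 FPKM, overexpression 1 was the highest library for 19. Among the 22 members over 50 FPKM, overexpression 3 was the highest for 17 and overexpression 1 for 2. The matching shares over all tested genes of these classes are not given here, so these counts have no background beside them. The deviation of a library is here its log2 level minus the gene's mean over the controls. Its median over the members under 5 FPKM was 0.34 in overexpression 1, 0.05 in overexpression 2 and 0.10 in overexpression 3, beside 0.13, 0.09 and -0.02 over all tested genes of that class. Over the members above 50 FPKM it was -0.11, -0.18 and 0.23 in overexpression 1 to 3, beside -0.13, -0.14 and 0.14 over all tested genes of that class. In overexpression 1 and 2 the low and the high class thus deviated in opposite directions, among members and among all tested genes, and in overexpression 3 both classes of members were above 0.

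The median log2 fold change of the members under 5 FPKM was 0.18, with 18 of 24 positive, beside 0.07 for all tested genes of that class, 60.0% of which were positive. It was 0.07 without overexpression 1 and -0.04 with the GC offset. For the 32 members between 5 and 50 FPKM it was 0.04, with 21 positive (65.6%), beside -0.02 and 43.8% for all tested genes of that class. For the 22 above 50 FPKM it was -0.0013, with 11 positive, beside -0.03 and 31.8%. Without overexpression 1 it was 0.04 and 0.05 in these classes, with 65.6% and 72.7% positive, beside -0.0060 and 0.0032 for all tested genes, with 47.7% and 51.6% positive.

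**Figure D4:**
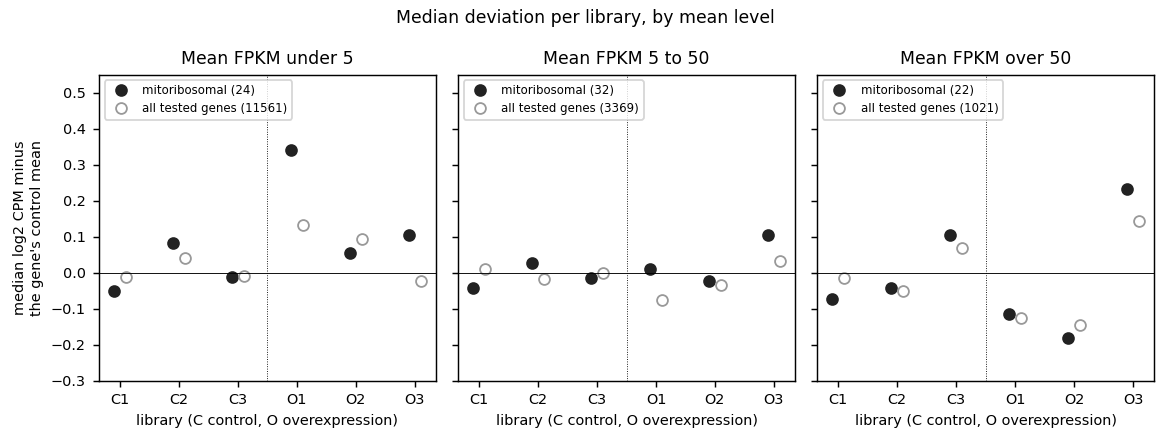
Median log2 deviation of each library from the gene's mean over the controls, in 3 classes of mean FPKM. Values are shown for members and for all tested genes. Members under 5 FPKM stand at 0.34 in overexpression 1, and members over 50 FPKM stand at 0.23 in overexpression 3 and at -0.18 in overexpression 2.

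Low and high members also differ in base composition. The median GC content of the longest transcript was 39.9% for members under 5 FPKM and 59.1% for members over 50 FPKM. Across the 78 members Spearman's rho between GC content and mean FPKM was 0.79, against 0.34 across 15338 tested genes, as a description across genes that share these libraries. For the relation with GC content, the deviation of a library was taken from the mean of the other 5 libraries. That of overexpression 1 ran against GC content, with a rho of -0.62 across the members and -0.41 across tested genes. That of control 3 ran with it (0.50 and 0.24), as did that of overexpression 3 (0.39 and 0.26). What produced these relations was not tested.

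**Figure D5:**
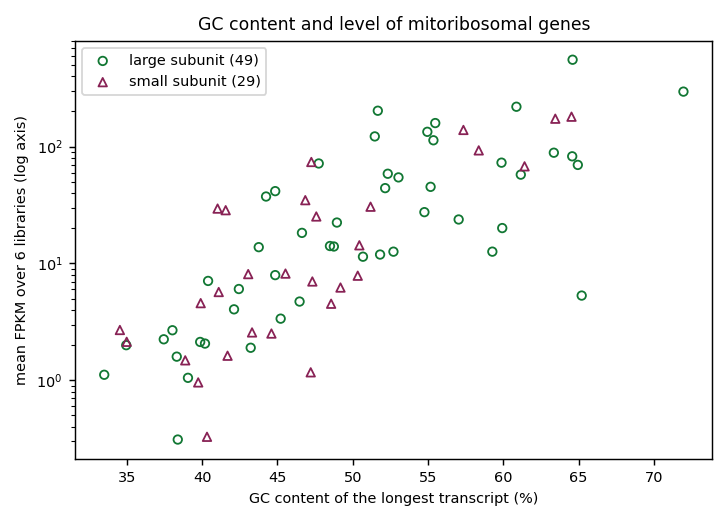
Mean FPKM over the 6 libraries on a log axis against the GC content of the longest annotated transcript, 1 point per gene. Members of higher GC content had higher levels in both subunits, with MRPL13 at 33.5% GC and 1.11 FPKM and MRPL41 at 71.9% GC and 296 FPKM.

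The other genes of the mitochondrial ribosome were measured in the same fit, from lists drawn up with the members. Of all tested genes 54.8% had positive values, and 51.5% without overexpression 1. Of 5 mitoribosomal proteins without an MRP number, 0 passed the test and 4 had positive values, with a median of 0.06, and 5 had without overexpression 1, with a median of 0.08. DAP3, a GTP-binding protein of the small subunit, was at 21.2, 21.5 and 20.6 FPKM in the controls and 21.8, 23.1 and 21.8 FPKM in the overexpression libraries, a narrow separation with a log2 fold change of 0.03 (SE 0.08), and 0.06 without overexpression 1. CHCHD1, a small-subunit protein with paired cysteines, was at 21.3, 19.6 and 21.5 FPKM against 21.4, 24.1 and 24.4 FPKM (log2 fold change 0.12, SE 0.12, and 0.19 without overexpression 1).

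Of 29 assembly factors, 0 passed the test and 13 were positive, with a median of -0.0027, and 22 were positive without overexpression 1, with a median of 0.06. MRM1, a methyltransferase of the large ribosomal RNA, was at 9.21, 9.74 and 9.63 FPKM in the controls and 11.8, 11.9 and 12.1 FPKM in the overexpression libraries. Its groups were far apart beside their spread, and the log2 fold change was 0.29 (SE 0.11, edgeR unadjusted p = 0.0395, adjusted p = 0.994) and 0.31 without overexpression 1. METTL15, a methyltransferase of the small ribosomal RNA, was at 0.116, 0.171 and 0.154 FPKM against 0.242, 0.265 and 0.178 FPKM (log2 fold change 0.57, SE 0.24, edgeR unadjusted p = 0.0450, adjusted p = 0.994). All overexpression libraries of METTL15 lay above all controls, and the value was 0.54 without overexpression 1.

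Of 17 translation factors and activators, 0 passed the test and 11 were positive, with a median of 0.12, and 0.05 without overexpression 1. SLIRP, which binds mitochondrial messenger RNA together with LRPPRC, was at 0.901, 1.27 and 1.05 FPKM against 2.29, 1.28 and 1.43 FPKM. Its log2 fold change of 0.58 (SE 0.27) was 0.31 without overexpression 1, the highest library. MTIF3, an initiation factor, was at 1.56, 1.86 and 1.83 FPKM against 2.29, 2.57 and 1.99 FPKM. Its groups did not overlap, and the log2 fold change was 0.33 (SE 0.18, edgeR unadjusted p = 0.110) and 0.34 without overexpression 1. The ribosomal RNAs of the particle, MT-RNR1 and MT-RNR2, had log2 fold changes of 0.03 (SE 0.10) and 0.14 (SE 0.15) in this oligo(dT)-selected RNA, and 0.09 and 0.22 without overexpression 1. The 13 mitochondrially encoded mRNAs, which the ribosome translates, had a median of 0.21, and 0.20 without overexpression 1. All 13 were positive, against 54.8% of tested genes. In the edgeR test 6 had an unadjusted p under 0.05, against 3.83% of tested genes, and 0 passed after adjustment. These genes share the same libraries and are not separate replicates.

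Many mitoribosomal genes share their start region with another gene. A partner on the other strand with its start within 1000 bases was found for 28 of the 78 members (35.9%), against 29.8% of tested genes. In 29 members (37.2%, against 42.5% of tested genes) the gene body overlapped that of a gene on the other strand, and in 15 (19.2%, against 22.1%) a gene on the same strand. Whether counting used the strand is not given in the sources used here, so reads from overlapping genes cannot be told apart in such places. MRPS34 and EME2, a gene of a DNA repair endonuclease subunit, start close together on chromosome 16, and their gene bodies overlap. EME2 had 129, 210 and 239 counts in the controls and 363, 1071 and 2025 counts in the overexpression libraries (log2 fold change 2.50, SE 0.59, edgeR unadjusted p = 0.00347, not called after adjustment, and 2.94 without overexpression 1), while MRPS34 had between 10976 and 16562 counts. All overexpression libraries of EME2 lay above all controls, the lowest of them being overexpression 1.

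A pair of members share a start region with each other: MRPS11 and MRPL46 on chromosome 15. MRPS11, a small-subunit gene, was at 7.47, 7.91 and 7.15 FPKM in the controls and 8.31, 8.76 and 7.51 FPKM in the overexpression libraries, with a log2 fold change of 0.08 (SE 0.08, and 0.09 without overexpression 1). MRPL46, a large-subunit gene, was at 2.05, 2.14 and 1.67 FPKM against 2.35, 2.11 and 2.05 FPKM, with 0.11 (SE 0.14, and 0.07 without overexpression 1). The groups overlapped in both. MRPS12 and its partner SARS2, the mitochondrial seryl-tRNA synthetase gene, had log2 fold changes of 0.03 each (SE 0.11 and 0.10), and 0.06 and 0.04 without overexpression 1. MRPL57 had -0.07 (SE 0.13), and 0.04 without overexpression 1. Its partner SKA3, a gene of the kinetochore, had 0.60 (SE 0.25, edgeR unadjusted p = 0.0430), and 0.33 without overexpression 1. These pairs are named for their partners and were chosen after their values were seen.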

How the data were processed

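The deposited table gives an expected count and an FPKM value per gene and library. The submitters' processing notes name cutadapt 1.9, HISAT2 2.0.4, StringTie 1.3.4d, edgeR and the build hg38; the annotation release and strandedness are not given in the sources used here. The expected counts the authors deposited were already whole and pile up at low multiples of 4 (2955, 4533 and 2620 values of 3, 4 and 5), so they may overstate fragments, which is why intervals for counting error were left out. The FPKM values the authors deposited correspond to the counts divided by a gene length that was constant between libraries (median coefficient of variation 0.497%) and mostly close to the merged exon length of GENCODE 29 (median ratio 1.09 over 10915 genes).

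All genes were fitted with edgeR 4.0.16 in R 4.3.3: TMM scaling, filterByExpr with a minimum count of 10, the quasi-likelihood test with group as the only term, two-sided, Benjamini-Hochberg adjustment over 15951 genes and a threshold of 0.05. Summed FPKM was compared by exact permutation tests. Alternatives used other scalings, filters, limma 3.58.1 on log2(FPKM + 1) and log2(FPKM + 0.1), DESeq2 1.42.0, a replicate block, leaving out each library, a GC offset (a spline per library), and counts divided by 4.

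Members named with values were the 10 of smallest p, the 5 highest of each subunit, the 3 lowest, those moving by over 0.58 on the log2 scale without overexpression 1, and genes of known role. The members and lists were chosen with earlier results of these data known. Gene coordinates are those of hg38. RefSeq gave promoters.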

Additional observations from a re-analysis of the deposited data

How the results depend on the processing

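No member was called under any of the 17 alternatives. Over all genes, DESeq2 called 12 and leaving out a library called 0 to 4. The median log2 fold change of small-subunit members was -0.021 to 0.082 when a library was left out, and the large-subunit summed difference was -3.90% to 3.88%. With promoters restricted to the bases before the start, the YY1 share was 4.35%. The replicate block had no call among the members, with a median of 0.03, 47 positive and MRPL54 at -0.024 and MRPS18A at -0.014. The labels do not say whether equal replicate numbers pair libraries. Deviations of same-numbered libraries from their group means correlated at -0.03, 0.04 and 0.07 over genes. Not every library correlated best with its own number, and these values cannot settle whether libraries were paired.

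Of the 29 members chosen by the naming rule, 13 had 1 sign throughout. Of the others given with fold changes, MRPS2 was -0.033 to 0.075 and MRPL57 -0.19 to 0.035 when a library was left out, and MRPL46 was -0.13 with the GC offset. RLE scaling and DESeq2 each gave MRPL54 -0.0037 and MRPS18A -0.0032. Upper-quartile scaling gave MRPL41 -0.014, MRPL45 -0.0012, MRPL54 -0.026, MRPS12 -0.0069 and MRPS18A -0.023. Limma gave MRPS24 0.0012 with either pseudocount. The GC offset, chosen after seeing the data, gave MRPL3 -0.0086, MRPL42 -0.25, MRPL45 -0.0080 and MRPS36 -0.22. Leaving out 1 library gave MRPL12 -0.22 to 0.062, MRPL14 -0.15 to 0.0017, MRPL35 -0.028 to 0.86, MRPL41 -0.16 to 0.11, MRPL42 -0.16 to 0.36, MRPL44 -0.13 to 0.021, MRPL45 -0.0047 to 0.067, MRPL54 -0.23 to 0.17, MRPS12 -0.089 to 0.095, MRPS18A -0.20 to 0.11, MRPS22 -0.22 to 0.052, MRPS24 -0.14 to 0.034, MRPS26 -0.082 to 0.21 and MRPS34 -0.033 to 0.12. The cause was not tested. At the median, 95% intervals reached 0.42 to either side for members under 5 FPKM and 0.32 for those over 50 FPKM.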
